A study of Camellia sinensis with 12 samples.

Results

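The csn-miR171 family is described here in 4 tissues of XYMJ (Xinyang Maojian) tea plants, *Camellia sinensis*. Its members were taken by name, as all IDs of the subfamilies MIR171_1 and MIR171_2 in the deposited small RNA counts. There were 31 such IDs among the 650 listed, 17 in MIR171_1 and 14 in MIR171_2. The 12 IDs whose total over all libraries was 10 counts or more, 4 of MIR171_1 and 8 of MIR171_2, are described singly, and the other 19 as a group. The tissues were the bud (sBud), the first leaf below it (sL1), the more mature second leaf (sL2) and the stem between these leaves (sS1), each in 3 libraries. All plants were of the same cultivar, grew on 1 plantation, and no treatment is named for any of them. The 3 libraries of a tissue are called biological replicates, collected from many plants, and the number of plants behind a library is not given in the sources used here. Tissue names follow the group labels of the libraries, since the deposited tissue field says leaf for each of them, and organ marker genes could not be checked because mRNAs were not analysed here.

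The miR171 family is among the most conserved plant miRNAs. In Arabidopsis it pairs with the mRNAs of GRAS transcription factors of the HAIRY MERISTEM group (HAM, also called LOST MERISTEMS or SCARECROW-LIKE) and directs their cleavage. In that species these GRAS factors keep the shoot meristem undifferentiated, and they are also known for roles in shoot branching, in chlorophyll synthesis and in the spacing of trichomes, the hairs that cover young tea shoots. The MIR171_1 and MIR171_2 names are those of precursor families in the Rfam database. The counts come without sequences, so neither the arm of the precursor nor the target of a single ID is known, and no member can be given a role of its own. How a read that matched several IDs was counted is not given in the sources used here, so levels of IDs that differ by few bases are uncertain.

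Library totals ranged from 387015 to 746562 counts, and miR171 made up between 0.292% and 0.667% of a library, or 1873 to 3051 counts. A DEM, or differentially expressed miRNA, is called here by the criterion in the methods of the study, a change of more than 1 on the log2 scale in either direction with an unadjusted p under 0.05. Levels are given below in CPM, counts scaled to a common library total after correction by the TMM factor of edgeR. A count of 0 allows up to 3 counts, which is 4.44 CPM on average in sL2, 5.38 in sS1, 6.05 in sBud and 7.22 in sL1. This limit and the intervals below cover counting error only, as sequenced PCR products are not independent molecules. The sL2 libraries stood apart from the others over all 222 tested IDs, with Pearson correlations of log2 CPM from 0.808 to 0.883 with libraries of other tissues, against 0.952 to 0.973 between libraries of 1 tissue (across IDs, which are not independent replicates). Libraries labelled sS1 and sL1 correlated with each other at 0.949 to 0.968. Over all 222 tested IDs, 90 were DEMs in sL1 vs. sL2 and 16 in sS1 vs. sL1. The paper, with its own test, reports few DEMs in sL1 vs. sL2. Against sBud, it reports the most DEMs for sS1, then for sL2, and the fewest for sL1. Here sBud vs. sL2 had the most, at 96, then sBud vs. sS1 at 65 and sBud vs. sL1 at 43. Whether the sL2 and sS1 labels match the tissues was not tested. Second leaf and stem below thus mean the libraries so labelled. The 5 IDs with the most counts took 79.8% to 80.1% of an sL2 library and 83.0% to 85.1% of the others. The part of these differences in the results below was not tested.

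The main pattern was a change in which members were counted in the second leaf. In sBud and sL1, cas-MIR171_2-8 and cas-MIR171_2-1 led the family, and in sS1 cas-MIR171_2-8 was followed by cas-MIR171_2-1 and cas-MIR171_2-6, with means of 663 and 648 CPM. In sL2 cas-MIR171_2-8 and cas-MIR171_2-1 were lower, and cas-MIR171_2-9 and cas-MIR171_2-2 took their place next to cas-MIR171_2-8. Together, cas-MIR171_2-9 and cas-MIR171_2-2 made up 43.1%, 48.4% and 49.7% of the MIR171_2 counts in the sL2 libraries and between 3.73% and 6.03% in the other 9 libraries. Of the 12 members, 10 differed among the 4 tissues (quasi-likelihood F test of edgeR, p adjusted by Benjamini-Hochberg and under 0.05), beside 53.2% of all 222 IDs in the fit. Among these 10, cas-MIR171_2-14 passed the count minimum only through its sL2 counts.

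**Figure D1:**
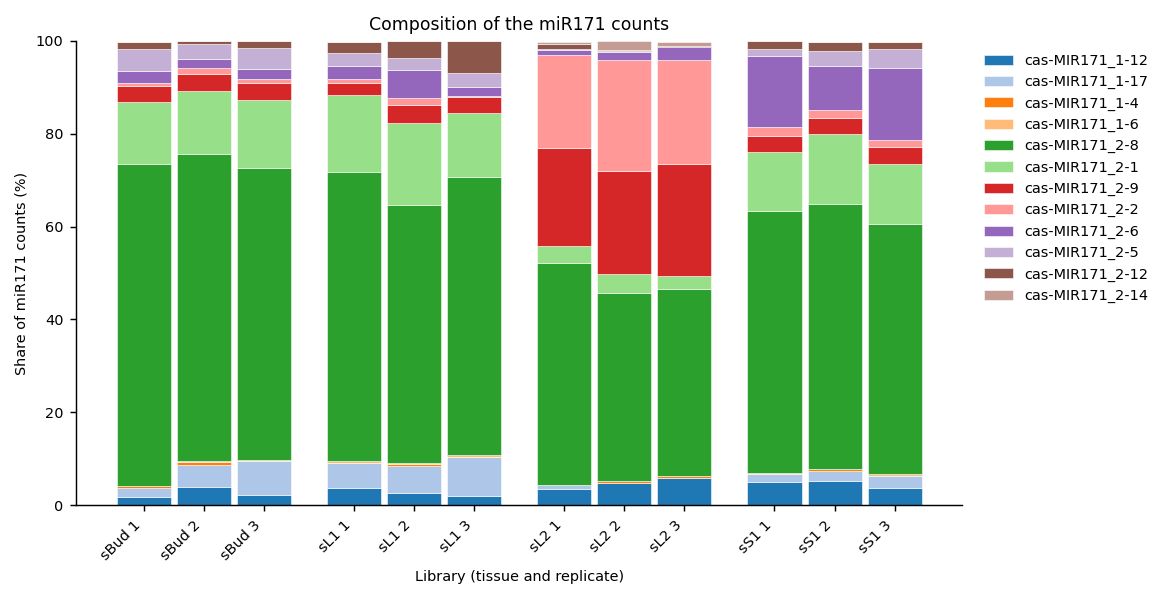
Share of each of the 12 described members in the miR171 counts (y axis, in %) of each library (x axis, tissue and replicate), with the 19 IDs under 10 counts left out of the drawing. In the sL2 bars the segments of cas-MIR171_2-9 and cas-MIR171_2-2 are wide, and that of cas-MIR171_2-8 is narrower than elsewhere.

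The most abundant member was cas-MIR171_2-8. It had 3591, 3195 and 3039 CPM in sBud, 3863, 2465 and 3272 in sL1, 2692, 2865 and 2576 in sS1, and 1347, 1160 and 1553 in sL2. All sL2 libraries lay below every other library, while neighbours in the order sBud, sL1, sS1 overlapped. It made up 42.9% ± 4.17 of the miR171 counts in sL2 (SD, n = 3), 55.8% ± 1.72 in sS1, 59.2% ± 3.43 in sL1 and 66.1% ± 3.26 in sBud. Its log2 fold change in sBud vs. sL2 was 1.27 (standard error of the fit, SE, 0.21, edgeR adjusted p = 0.000219), 1.24 for sL1 vs. sL2 (SE 0.21, edgeR adjusted p = 0.000240) and 1.002 for sS1 vs. sL2 (SE 0.21, edgeR adjusted p = 0.00140). The last value was just above the threshold of 1, and it fell to 0.87 with DESeq2 and to 0.73 with library size as the only scaling. It was also below 1 without sL1 replicate 3 (0.97), sS1 replicate 1 (0.98) or sS1 replicate 2 (0.97).

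The second member, cas-MIR171_2-1, was lower in the second leaf by a larger factor. Its levels were 691, 658 and 712 CPM in sBud, 1034, 787 and 752 in sL1, 611, 761 and 616 in sS1, and 107, 118 and 102 in sL2. The sL2 libraries were close to each other and far below the rest, and the sL1 libraries lay above those of sBud. The log2 fold change in sBud vs. sL2 was 2.65 (SE 0.24, edgeR adjusted p = 1.07e-06), 2.97 for sL1 vs. sL2 (SE 0.24, edgeR adjusted p = 2.91e-07) and 2.60 for sS1 vs. sL2 (SE 0.24, edgeR adjusted p = 1.33e-06). Between sBud and sL1 it was -0.32, which did not pass the test (adjusted p of edgeR = 0.423).

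The other pattern in MIR171_2 was a higher level in the second leaf, shown by cas-MIR171_2-9, cas-MIR171_2-2 and cas-MIR171_2-14. cas-MIR171_2-9 had 179, 174 and 174 CPM in sBud, 156, 176 and 179 in sL1, 164, 174 and 181 in sS1, and 593, 630 and 934 in sL2. Outside sL2 its 9 values lay in a narrow band, and every sL2 library was far above it. The log2 fold change in sBud vs. sL2 was -2.03, -2.08 for sL1 vs. sL2 and -2.06 for sS1 vs. sL2, each with a standard error of 0.26 (adjusted p of edgeR = 2.76e-05, 1.83e-05 and 2.13e-05). cas-MIR171_2-2 had 29.5, 69.7 and 46.4 CPM in sBud, 52.9, 67.2 and 14.2 in sL1, 90.7, 79.9 and 72.7 in sS1, and 569, 683 and 858 in sL2. Its second highest tissue was the stem, whose libraries were above all those of sBud and sL1. The log2 fold change of cas-MIR171_2-2 was -3.86 for sBud vs. sL2 (standard error 0.47), -3.94 for sL1 vs. sL2 (standard error 0.47) and -3.11 for sS1 vs. sL2 (standard error 0.45), with adjusted p of edgeR of 1.94e-05, 1.29e-05 and 6.67e-05. Its stem difference did not pass the test, with a log2 fold change of -0.75 for sBud vs. sS1 and 0.83 for sS1 vs. sL1 (adjusted p of edgeR = 0.227 and 0.444). The stem difference met it at -1.09 (sBud vs. sS1) without sBud replicate 2 and at 1.17 (sS1 vs. sL1) without sL1 replicate 2.

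The last of these, cas-MIR171_2-14, was close to absent outside the second leaf. It had 8, 34 and 23 counts in the sL2 libraries, 1, 0 and 0 in sL1, and 0 in each library of sBud and sS1. Of its 66 counts, 65 were in sL2, so it passed the count minimum and was tested only through that tissue. Its place among the tested members thus rests on the tissue where it was high, and its p-values below carry that limit. Its level in sL2 was 32.0 ± 19.6 CPM (SD, n = 3). With the tissue at 0 set to its limit, this mean was 5.29-fold higher than in sBud (adjusted p of edgeR = 0.00144) and 5.96-fold higher than in sS1 (adjusted p of edgeR = 0.00129). These bounds, taken against 3 counts per library, were 3.69-fold and 4.16-fold without sL2 replicate 2. Against the single count in sL1 the ratio of the summed counts was 40.8, with an exact 95% interval from 7.07 to 1636 (adjusted p of edgeR = 0.00391). The fitted log2 fold change of sL1 vs. sL2 was -4.99, and it was -4.28 without sL1 replicate 2 and -4.39 without sL2 replicate 2. Without sL1 replicate 1, which held the single count, sL1 was at 0 as well.

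**Figure D2:**
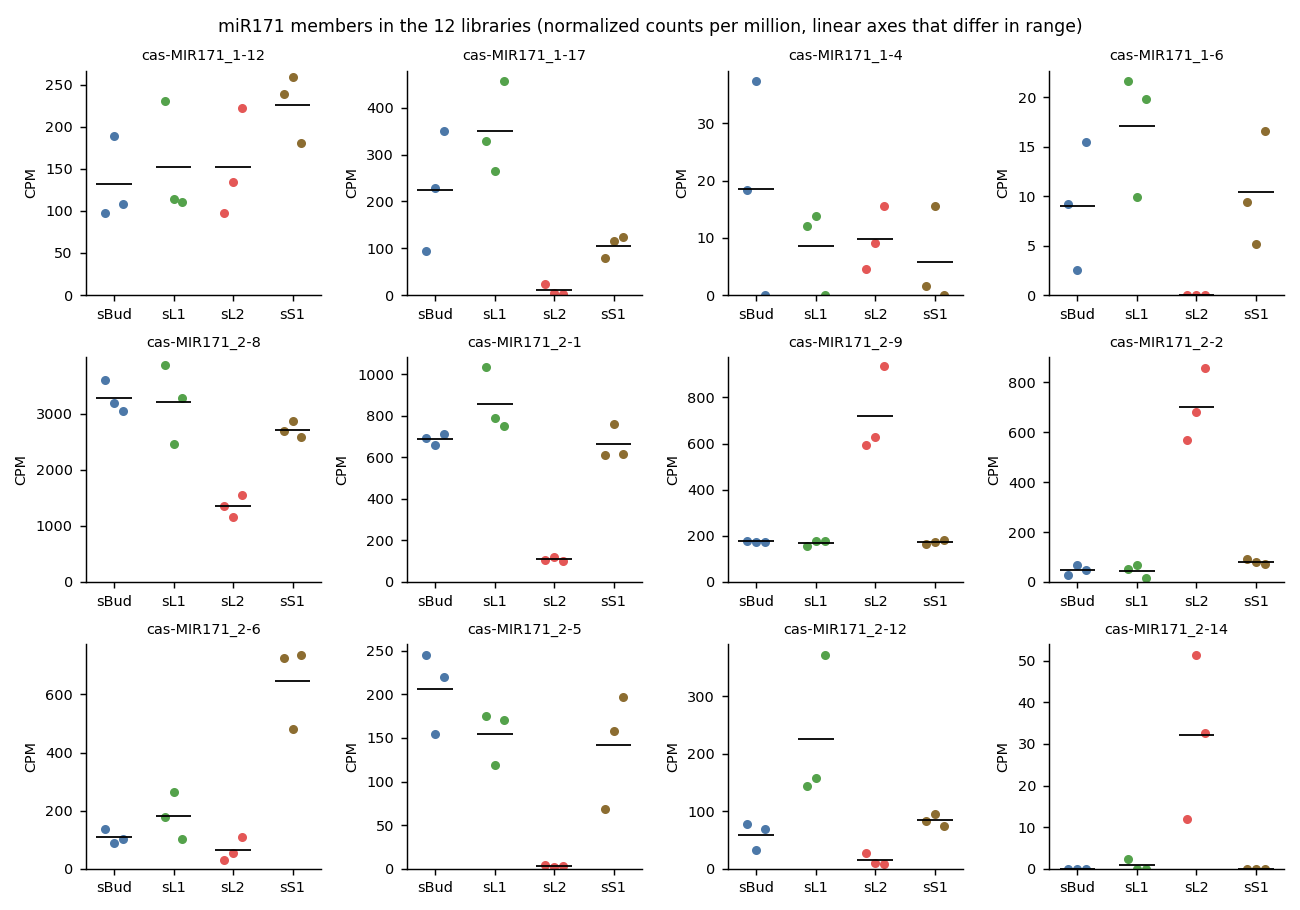
Normalized level (y axes, CPM, linear and of different range) of the 12 members in each library, by tissue (x axes). Points are libraries and black lines are means of 3. cas-MIR171_2-9, cas-MIR171_2-2 and cas-MIR171_2-14 are highest in sL2, cas-MIR171_2-6 is highest in sS1, and cas-MIR171_1-17, cas-MIR171_2-1 and cas-MIR171_2-5 are lowest in sL2.

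Among members counted in all tissues, the largest ratio to sL2 belonged to cas-MIR171_2-5, which had almost no counts in the second leaf. It was counted 133, 62 and 128 times in sBud, 73, 60 and 60 times in sL1, 44, 91 and 95 times in sS1, and 3, 1 and 2 times in sL2. Every sL2 library was far below the others, and the other 3 tissues overlapped. The mean level was 2.96 ± 1.51 CPM in sL2, 141 ± 65.8 in sS1, 155 ± 31.4 in sL1 and 206 ± 46.8 in sBud (SD, n = 3). The summed counts gave a ratio to sL2 of 71.6 for sBud (exact 95% interval 32.5 to 197), of 51.2 for sL1 (23.1 to 141) and of 45.8 for sS1 (20.7 to 126). The adjusted p of edgeR was 1.07e-06, 1.62e-06 and 2.11e-06 for these comparison groups.

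cas-MIR171_2-6 was the member whose stem libraries all stood above those of the other tissues. Its levels were 727, 480 and 737 CPM in sS1, 138, 89.7 and 101 in sBud, 178, 263 and 102 in sL1, and 30.2, 54.4 and 108 in sL2. Neighbours in the order sL1, sBud, sL2 overlapped. The mean of cas-MIR171_1-12 was highest in the stem as well, but its libraries overlapped with those of sL1. The log2 fold change of cas-MIR171_2-6 was -2.56 for sBud vs. sS1 (SE 0.46, edgeR adjusted p = 0.000779) and 3.33 for sS1 vs. sL2 (SE 0.47, edgeR adjusted p = 5.96e-05). For sS1 vs. sL1 it was 1.83 (standard error 0.44), a DEM by the unadjusted p whose adjusted p of edgeR was 0.0741. It was also a DEM in sL1 vs. sL2, at 1.497 (SE 0.45, edgeR adjusted p = 0.0160), although a library of each tissue overlapped. In sBud vs. sL2 it was 0.77 and did not pass. The libraries that moved these values were sL2 replicate 3, without which they were 3.98 for sS1 vs. sL2, 2.11 for sL1 vs. sL2 and 1.42 for sBud vs. sL2, now a DEM, and sL1 replicate 3, without which sBud vs. sL1 became a DEM at -1.02 in place of -0.72.

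The mean level was highest in the first leaf for cas-MIR171_2-12, as for cas-MIR171_2-1, cas-MIR171_1-17 and cas-MIR171_1-6. It had 144, 158 and 372 CPM in sL1, 77.4, 32.4 and 68.7 in sBud, 82.8, 95.6 and 74.7 in sS1, and 27.2, 10.6 and 8.52 in sL2. Every sL1 library was above all others and every sL2 library was below all others. It was the only one of the 12 to be a DEM between the bud and the first leaf, at a log2 fold change of -1.90 for sBud vs. sL1 (SE 0.49, edgeR adjusted p = 0.0165). Against sL2 it was 1.95 for sBud (SE 0.53, edgeR adjusted p = 0.00805), 3.85 for sL1 (SE 0.54, edgeR adjusted p = 4.82e-05) and 2.44 for sS1 (SE 0.53, edgeR adjusted p = 0.00190). Without sL2 replicate 1 these were 2.80, 4.68 and 3.23, and without sL1 replicate 3 that of sL1 was 3.26. In sS1 vs. sL1 it was a DEM by the unadjusted p at -1.40 (SE 0.48, edgeR adjusted p = 0.199), and at -0.86 without sL1 replicate 3 it was not.

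In MIR171_1, nearly all counts fell on cas-MIR171_1-12 and cas-MIR171_1-17, and of this pair the latter differed among the 4 tissues (adjusted p of edgeR = 0.000118). cas-MIR171_1-17 had 94.0, 229 and 351 CPM in sBud, 329, 265 and 457 in sL1, 78.2, 115 and 125 in sS1, and 22.6, 4.53 and 2.84 in sL2. The sL2 libraries were below all others, the sL1 libraries were above those of sS1, and the sBud libraries overlapped with both. Its log2 fold change in sBud vs. sL2 was 4.47 (SE 0.66, edgeR adjusted p = 9.43e-05), 5.11 for sL1 vs. sL2 (SE 0.67, edgeR adjusted p = 2.57e-05) and 3.38 for sS1 vs. sL2 (SE 0.65, edgeR adjusted p = 0.000848). Of the 20 counts in sL2, 15 came from replicate 1, and without that library the values were 6.003, 6.65 and 4.87. For sS1 vs. sL1 the log2 fold change was -1.73 (standard error 0.55), a DEM by the unadjusted p with an adjusted p of edgeR of 0.179. For sBud vs. sS1 it was 1.09 and no DEM (adjusted p of edgeR = 0.151), but it became one at 1.18 with DESeq2, at 1.44 without sBud replicate 1 and at 1.13 without sL2 replicate 1.

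The means of cas-MIR171_1-12 lay between 132 CPM in sBud and 226 in sS1. It had 97.7, 189 and 108 CPM in sBud, 231, 115 and 111 in sL1, 98.0, 134 and 223 in sL2, and 239, 259 and 181 in sS1. Neighbouring tissues overlapped along the whole order of means, and a difference among the 4 tissues did not pass the test (adjusted p of edgeR = 0.331). Its log2 fold changes ranged from -0.79 for sBud vs. sS1 (standard error 0.41) to 0.58 for sS1 vs. sL2 (standard error 0.40). Single libraries took it across the threshold, to -1.13 for sBud vs. sS1 without sBud replicate 2, to 1.005 for sS1 vs. sL1 without sL1 replicate 1 and to 1.011 for sS1 vs. sL2 without sL2 replicate 3. It made up 86.4% ± 8.58 of the MIR171_1 counts in sL2 (SD, n = 3), against 63.5% ± 9.07 in sS1, 35.5% ± 11.2 in sBud and 28.3% ± 9.75 in sL1.

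The other described members of MIR171_1 had few counts. cas-MIR171_1-6 was counted 5, 1 and 9 times in sBud, 9, 5 and 7 times in sL1, 6, 3 and 8 times in sS1, and 0 times in each sL2 library. With 3 counts per library in place of 0 in sL2, its mean level was 3.86-fold higher in sL1, 2.34-fold in sS1 and 2.04-fold in sBud (adjusted p of edgeR = 0.000953, 0.00266 and 0.00305). These bounds allow for counting error in sL2 only. The bound for sBud was 1.32-fold without sBud replicate 3. cas-MIR171_1-4 had 10, 15 and 0 counts in sBud, 5, 7 and 0 in sL1, 1, 9 and 0 in sS1, and 3, 6 and 11 in sL2. Its counts of 0 were those of replicate 3 in sBud, sL1 and sS1, whereas in sL2 replicate 3 had the most. It did not differ detectably among the tissues at this depth (adjusted p of edgeR = 0.686), and its log2 fold change for sBud vs. sS1 moved from 1.58 to 4.10, past the criterion, without sS1 replicate 2.

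The 19 other IDs, 13 of MIR171_1 and 6 of MIR171_2, had 55 of the 29051 miR171 counts, or 0.189%. Their totals over the 12 libraries ranged from 1 to 7 counts with a median of 3, and 8 of them had a single count. The highest below the minimum were cas-MIR171_1-7, cas-MIR171_2-11 and cas-MIR171_2-13 with 7 counts each, of which cas-MIR171_1-7 had 5 in sBud replicate 1. The lowest above it was cas-MIR171_1-6 with 53, so no miR171 ID had a total between 7 and 53 counts.

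The subfamilies were then compared as wholes. MIR171_1 summed to 534 ± 109 CPM in sL1 (SD, n = 3), 390 ± 140 in sBud, 356 ± 43.7 in sS1 and 173 ± 61.2 in sL2. MIR171_2 summed to 4836 ± 787 CPM in sL1, 4562 ± 339 in sBud, 4505 ± 98.6 in sS1 and 3005 ± 522 in sL2. Both sums were thus lowest in the second leaf, and MIR171_2 was the larger in every library. By library, MIR171_2 had 2697, 2710 and 3608 CPM in sL2, all below the lowest value elsewhere, 4035 in sL1 replicate 2. MIR171_1 had 128, 148 and 243 CPM in sL2, where sL2 replicate 3 overlapped with the 228 CPM of sBud replicate 1. The sums differed among the tissues in MIR171_1 (exact permutation test, two-sided, of an F value for 4 tissues with all 369600 ways to assign the libraries, p = 0.0122, and 0.0217 when adjusted for 3 such tests) and in MIR171_2 (exact permutation test, p = 0.0145, adjusted 0.0217). The smallest p that this test can give is 6.49e-05. For MIR171_2 the exact permutation test gave p = 0.0772 with library size as the only scaling and p = 0.0512 without cas-MIR171_2-8, where the sums were 1794 ± 75.3 CPM in sS1, 1652 ± 363 in sL2, 1636 ± 95.5 in sL1 and 1287 ± 96.6 in sBud.

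**Figure D3:**
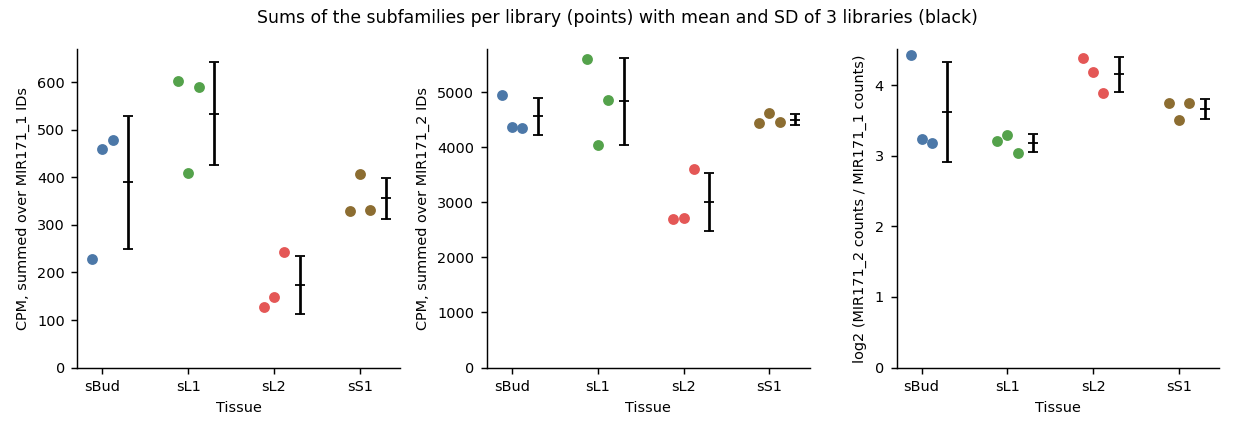
Summed levels of MIR171_1 and MIR171_2 (CPM) and the log2 ratio of their counts in each library (points), by tissue, with mean and SD of 3 libraries in black. Both sums are lowest in sL2, and the ratio of sBud replicate 1, at 4.43, is apart from the 3.24 and 3.18 of the other sBud libraries.

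For each count of MIR171_1 there were 9.29, 9.86 and 8.24 counts of MIR171_2 in the sL1 libraries, 13.5, 11.4 and 13.4 in sS1, 21.7, 9.49 and 9.09 in sBud, and 21.0, 18.3 and 14.9 in sL2. The sL2 libraries were above those of sL1 and sS1, while sBud replicate 1 was as high as sL2. The log2 of this ratio was 4.15 ± 0.25 in sL2 (SD, n = 3), 3.66 ± 0.14 in sS1, 3.62 ± 0.70 in sBud and 3.18 ± 0.13 in sL1. A difference between the subfamilies in their course over the tissues did not pass the test (exact permutation test, two-sided, p = 0.0910, and 0.0910 after adjustment). With libraries left out in turn, the exact permutation test gave p from 0.00136 to 0.203. The lowest value was that without sBud replicate 1, the only library whose removal took p below 0.05. With the most counted ID of each subfamily left out, the exact permutation test gave p = 0.000779. Most of the MIR171_1 counts were then those of cas-MIR171_1-17.

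Counts summed per family name were also tested with edgeR for 42 families, in fits of all libraries. MIR171_1 was a DEM in the 3 comparison groups with sL2, beside 47.6% of the families in sBud vs. sL2, 28.6% in sL1 vs. sL2 and 28.6% in sS1 vs. sL2. Its log2 fold changes were 1.17 for sBud vs. sL2, 1.62 for sL1 vs. sL2 and 1.04 for sS1 vs. sL2, with standard errors of 0.34, 0.35 and 0.34 (adjusted p of edgeR = 0.0116, 0.00217 and 0.0299). The last of these was below 1 without sL2 replicate 1 (0.996) or sS1 replicate 2 (0.97), with RLE size factors (0.90) and with library size as the only scaling (0.77). MIR171_2 had log2 fold changes of 0.60, 0.69 and 0.58 in the same comparison groups, each with a standard error of 0.18 (adjusted p of edgeR = 0.0116, 0.00780 and 0.0243), which is under the threshold of 1. With the most counted ID of each subfamily left out, the log2 fold changes of MIR171_1 were 3.59 for sBud vs. sL2, 4.16 for sL1 vs. sL2 and 2.60 for sS1 vs. sL2. Those of MIR171_2 were then -0.36, -0.01 and 0.12, none of them a DEM. Most of the MIR171_1 counts left were the 975 of cas-MIR171_1-17, so its values there are mainly those of 1 ID. Neither subfamily was a DEM in sBud vs. sS1, sBud vs. sL1 or sS1 vs. sL1, where 40.5%, 23.8% and 4.76% of the families were, and there the smallest unadjusted p of edgeR was 0.109, for MIR171_1 in sS1 vs. sL1.

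Member by member, the shares of all 222 tested IDs are given beside the counts. In sBud vs. sL2, 6 of the 12 members were DEMs higher in sBud (2 of MIR171_1 and 4 of MIR171_2), beside 19.8% of all IDs, and 3 were lower (all of MIR171_2), beside 23.4%. In sL1 vs. sL2, 7 were higher in sL1 (2 and 5), beside 19.4%, and 3 of MIR171_2 were lower, beside 21.2%. In sS1 vs. sL2, 7 were higher in sS1 (2 and 5), beside 20.3%, and 3 of MIR171_2 were lower, beside 21.2%. All of these had an adjusted p below 0.05. The members lower than in sL2 include cas-MIR171_2-14, which was tested only because of its sL2 counts. The median log2 fold change of the 12 members, with IDs at 0 in a tissue set to their bound, was 0.94 in sBud vs. sL2, 1.37 in sL1 vs. sL2 and 1.12 in sS1 vs. sL2, and with fitted values in place of bounds it was 1.07, 1.37 and 1.72. The median of all tested IDs was 0.00, 0.11 and -0.02. These comparison groups share the sL2 libraries, so their counts are not independent of each other.

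**Figure D4:**
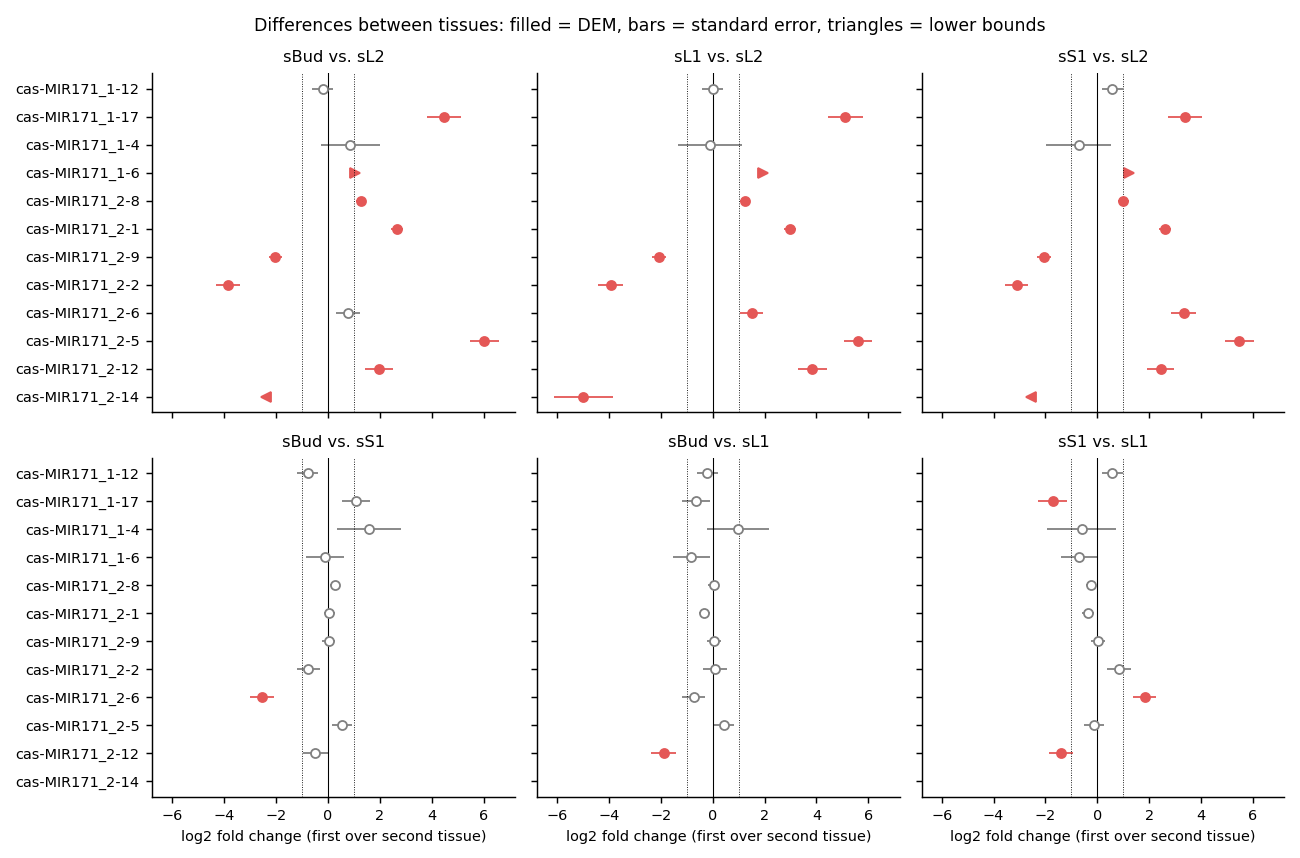
log2 fold change (x axes, first tissue over second) of the 12 members in the 6 comparison groups. Filled red marks are DEMs, bars are standard errors, triangles are lower bounds against a tissue with 0 counts, and cas-MIR171_2-14 is not drawn where both tissues had at most 1 count. The 3 panels with sL2 hold most of the filled marks, and in the panels without sL2 the filled marks are those of cas-MIR171_2-6, cas-MIR171_2-12 and cas-MIR171_1-17.

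Between the other tissues, the share of members called was below that of all IDs in sBud vs. sS1 and sBud vs. sL1. In sS1 vs. sL1 it was above that of all IDs, at 8.33% higher and 16.7% lower in sS1. In sBud vs. sS1, 1 of 12 was lower in sBud (cas-MIR171_2-6), beside 13.1% of all IDs, and 0 were higher, beside 16.2%. In the latter direction 0 had an unadjusted p of edgeR below 0.05, limma-voom called 0 and DESeq2 called 1 (cas-MIR171_1-17). Without sBud replicate 2 the number of DEMs in this comparison group was 3, and without sBud replicate 1, sL2 replicate 1 or sS1 replicate 2 it was 2. In sBud vs. sL1, 1 of 12 was lower in sBud (cas-MIR171_2-12), beside 9.46%, and 0 were higher, beside 9.91%, where 0 had an unadjusted p of edgeR below 0.05 and DESeq2 and limma-voom called 0. Without sL1 replicate 3 this comparison group had 2 DEMs. In sS1 vs. sL1, 1 was higher in sS1 (cas-MIR171_2-6), beside 4.50%, and 2 were lower (cas-MIR171_1-17 and cas-MIR171_2-12), beside 2.70%. None of these 3 (0 of 3) had an adjusted p of edgeR below 0.05, while 2 did with DESeq2 and 1 with limma-voom. The 3 comparison groups with sL2 held 29 calls out of 36 tests of a member, and the 3 without it held 5 out of 36. The 29 include 3 calls of cas-MIR171_2-14, which was tested only because of its sL2 counts. All 222 IDs also had more DEMs with sL2, at 96 in sBud vs. sL2, 90 in sL1 vs. sL2 and 92 in sS1 vs. sL2. Without it there were 65 in sBud vs. sS1, 43 in sBud vs. sL1 and 16 in sS1 vs. sL1.

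Other conserved miRNAs that act on the same shoot programmes were counted by family name. The SPL factors, which are targets of csn-miR156 and its relatives, bind HAM proteins in Arabidopsis, and the lists of SPL-targeting and of shoot meristem miRNAs (csn-miR165, csn-miR166, csn-miR164 and csn-miR394) were drawn up from their known targets. Of 13 tested SPL-targeting IDs, 0 were DEMs higher in sBud and 2 lower in sBud vs. sL2, where 19.8% of all IDs were higher and 23.4% lower. In sL1 vs. sL2, 1 was higher and 1 lower, beside 19.4% and 21.2%, and in sS1 vs. sL2, 1 was higher and 2 lower, beside 20.3% and 21.2%. In the comparison groups without sL2, 1 was higher and 2 lower in sBud vs. sS1 (16.2% and 13.1% of all IDs), 1 was higher and 0 lower in sBud vs. sL1 (9.91% and 9.46%), and 0 were called in sS1 vs. sL1 (4.50% and 2.70%). Of 40 tested shoot meristem IDs, 6 were higher and 3 lower in sBud vs. sL2, both smaller shares than those of all IDs. In sL1 vs. sL2, 9 were higher and 5 lower, and in sS1 vs. sL2, 11 were higher and 4 lower, beside the shares of all IDs just given. In the comparison groups without sL2, 4 were higher and 5 lower in sBud vs. sS1, 2 higher and 2 lower in sBud vs. sL1, and 1 higher and 1 lower in sS1 vs. sL1. The median log2 fold changes in sBud vs. sL2, sL1 vs. sL2 and sS1 vs. sL2 were -0.37, -0.51 and -0.04 for the SPL-targeting IDs and 0.34, 0.31 and 0.49 for the shoot meristem IDs.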

How the data were processed

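Small RNAs of 12 libraries (4 tissues, 3 replicates each) were counted by the authors. The deposited values are raw counts per conserved miRNA ID: per the paper's methods, reads under 20 nt and reads of other ncRNA classes were removed, and the rest were aligned to miRBase plant miRNAs with up to 2 mismatches. The authors' own test was DESeq. Here edgeR 4.0.16 (R 4.3.3; glmQLFit, TMM, 1 fit of all libraries with a term per tissue) tested the 222 IDs with at least 10 counts in 6 comparisons, with Benjamini-Hochberg adjustment over all of them. Standard errors are the unshrunk log2 fold change divided by the square root of F. Family sums used the same totals and factors. Subfamily sums (log2 CPM) and their log2 ratio (0.5 counts added) were compared by exact permutation. Ratios of summed counts have Clopper-Pearson intervals. Scripts were tested on simulated data. Alternatives included DESeq2 1.42.0, limma-voom (limma 3.58.1), other scalings and filters, and each library left out. All members with at least 10 counts are described. Members and lists were chosen with earlier results of these data known. No label says that replicates came from separate plants, so p-values measure the spread between these samples. Replicate libraries differed by more than sampling noise (chi-square per degree of freedom 16.1 to 124).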

Additional observations from a re-analysis of the deposited data

How the results depend on the processing

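Over the 34 calls of a member in a comparison group and their alternatives, 731 of 742 values kept direction and call, 11 kept the direction and lost the call, and 0 reversed. Members that the filterByExpr filter of edgeR dropped have no value with it among the 742. With that filter the miR171 DEMs were 7 in place of 9 in sBud vs. sL2 and 8 in place of 10 in sL1 vs. sL2. In sS1 vs. sL2 they were 7 in place of 10, and 8 members in place of 10 differed among the tissues. The number of miR171 DEMs in sBud vs. sS1 was 1, and 2 with DESeq2, RLE size factors, library size only, no filter, or a fit of the 2 tissues alone. With libraries left out in turn it ranged from 1 to 3, and that in sBud vs. sL1 from 1 to 2. With adjusted p, the 3 DEMs in sS1 vs. sL1 became 0. The sum of MIR171_1 in sS1 vs. sL1 became a DEM at a log2 fold change of -1.56 with the most counted ID of each subfamily left out. In sS1 vs. sL2 it lost the call at 0.77 with library size only and 0.90 with RLE size factors, and ranged from 0.97 to 1.42 with libraries left out. The exact permutation test of the MIR171_2 sum gave p = 0.0772 with library size only and p = 0.0512 without its most counted ID. For the ratio of the subfamilies the exact permutation test gave p = 0.000779 without the most counted IDs and from 0.00136 to 0.203 with libraries left out. The cause of these changes was not tested.

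Library size only moved the median log2 fold change of all IDs by 0.18 in sBud vs. sS1, -0.17 in sL1 vs. sL2 and -0.26 in sS1 vs. sL2, and RLE by -0.13 in the last. The replicate numbers are not described as pairing the libraries, and of 18 pairs of libraries with the same number 1 had a correlation of deviations above 0.1 (range -0.19 to 0.16), with 4 of 12 libraries closest to their own number. With the replicate number as a block, the miR171 DEMs were 1 in sBud vs. sS1, 1 in sBud vs. sL1, 9 in sBud vs. sL2, 10 in sL1 vs. sL2, 3 in sS1 vs. sL1 and 10 in sS1 vs. sL2, as without it, and 10 members again differed among the tissues. Over all IDs, the block moved the DEMs of sL1 vs. sL2 from 90 to 82. Members with few counts, such as cas-MIR171_1-4 and cas-MIR171_1-6, are limited by depth.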
